A study of Homo sapiens with 9 samples.

Results

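The genes described here are those on which UHRF1 depletion and the histone deacetylase inhibitor trichostatin A (TSA) acted non-additively in RKO cells, a human colorectal cancer line. They were sought on 8 of the 9 arrays of the study, 2 in each of 4 groups. Cells in siCONT received a control siRNA for 72 h and then ethanol as mock for 24 h. Cells in siUHRF1 received an siRNA against UHRF1 and the same mock, with siUHRF1-1 on replicate 1 and siUHRF1-2 on replicate 2. In siCONT + TSA and siUHRF1 + TSA the mock was replaced by 300 nM TSA for 24 h. All 4 groups were therefore transfected, and the replicates of the UHRF1-depleted groups differ in siRNA. The ninth array held cells given 1 µM 5-aza-dC, a DNA methyltransferase inhibitor, for 72 h without siRNA. The labels do not say that replicates came from separate cultures, so p-values measure the spread between these arrays. That spread may be technical in the siCONT groups, and in the UHRF1-depleted groups it includes any difference between the siRNAs. Over probes above background on all 8 arrays, the log2 signals of replicates differed by a median of 0.060 in siCONT and 0.065 in siCONT + TSA. In siUHRF1 and siUHRF1 + TSA the medians were 0.248 and 0.175, while the test takes 1 shared spread for all 4 groups.

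The interaction of a probe was its log2 change from siCONT + TSA to siUHRF1 + TSA minus its log2 change from siCONT to siUHRF1. A positive value means that the combination lay above the product of the separate fold changes, and a negative value that it lay below. Of 23703 probes tested, 90 were called at an adjusted p below 0.05 by limma, which is 0.38% of the probes tested. At an unadjusted p below 0.05 there were 781 positive (3.29%) and 385 negative (1.62%) interactions. The called probes were 85 with a positive interaction (0.359% of probes tested) and 5 with a negative one (0.0211%). Of these, 70 probes had a gene symbol, for 65 genes with a positive interaction (0.471% of the 13812 genes tested) and 2 with a negative one, while 20 probes had no symbol. The number of calls depends on how dim signals enter, with 6 probes called after normexp background correction (offset 50), 5 when at least 2 groups had to be above background, 15 by ANOVA without shrinkage and 1, SPANXB1, with a trended prior. In the plot of interaction against p-value the calls lie almost entirely on the right and among probes that at least 1 array did not measure above background.

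**Figure D1:**
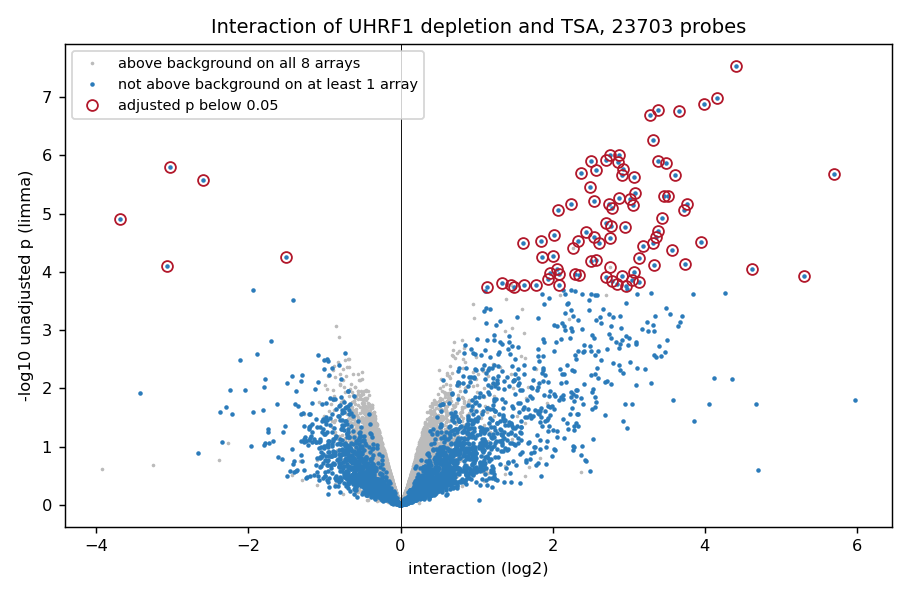
Interaction of UHRF1 depletion and TSA (horizontal axis, log2) against the negative log10 of limma's unadjusted p (vertical axis) for 23703 probes. Grey points are probes above background on all 8 arrays, blue points are the other probes, and red circles mark the 90 called probes, of which 85 lie to the right of 0 and 87 are blue.

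UHRF1 binds hemi-methylated DNA behind the replication fork and brings in DNMT1, the enzyme that copies methylation to the new strand. TSA blocks class I and II histone deacetylases, which remove acetyl groups from histones and favour closed chromatin. Many germline genes, among them the cancer-testis antigens, are kept silent in somatic cells by DNA methylation of their promoters. The question posed by the factorial design is whether removing the methylation machinery and blocking deacetylation together gave more expression than each on its own.

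UHRF1 itself was at 2.69 and 2.69 in siCONT, 0.36 and 0.07 in siUHRF1, 2.87 and 2.86 in siCONT + TSA, and -0.34 and -0.62 in siUHRF1 + TSA. These and all levels below are log2 signals relative to the 75th percentile of the array. Every UHRF1-depleted array lay below every control array, with a change of -2.47 without TSA (adjusted p = 0.00238) and -3.35 with TSA (adjusted p = 0.000132). The interaction of UHRF1 was -0.88 (SE 0.20, adjusted p = 0.364) and was not called. The share of probes well above background ranged from 43.6% to 46.6% over these arrays, the 75th percentile of the signal ranged from 245 to 338, and no spot was saturated. All 8 arrays shared 1 slide and 1 scan. Row 1 of the slide held the mock arrays and row 2 those with TSA, and control siRNA took columns 1 and 2 while UHRF1 siRNA took columns 3 and 4. A row effect and a column effect that add on the log2 scale cancel in the interaction, although they do not cancel in the single effects. Of 8 markers of colorectal epithelium, KRT8, KRT18 and CDX2 were above background on both siCONT arrays, whereas CDH1 and VIL1 were above it on none of the 8 arrays. Of 5 germ cell markers, DDX4, PRM1, TNP1 and ACRV1 were above background on none of the 8 arrays and PRM2 on 2.

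The promoter sequences of 5 genes on which the results turn are shown, from the RefSeq promoter table on GRCh38.p14, as the 150 bases before the start of the gene in its 5′ to 3′ direction. Capitals mark each CG dinucleotide, the site that DNMT1 methylates. SPANXB1 had the largest called interaction, MAGEA9 and FILIP1 had large ones with and without a signal in siUHRF1, and PCAT19 and DHRS2 were measured above background on all 8 arrays. The windows are chrX:141002444-141002593 on the plus strand for SPANXB1, chrX:149781780-149781929 on the plus strand for MAGEA9, chr6:75493801-75493950 on the minus strand for FILIP1, chr19:41500650-41500799 on the minus strand for PCAT19 and chr14:23629965-23630114 on the plus strand for DHRS2.
SPANXB1: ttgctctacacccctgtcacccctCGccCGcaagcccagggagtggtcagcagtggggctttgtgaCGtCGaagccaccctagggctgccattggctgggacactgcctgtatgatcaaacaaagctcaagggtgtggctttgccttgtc
MAGEA9: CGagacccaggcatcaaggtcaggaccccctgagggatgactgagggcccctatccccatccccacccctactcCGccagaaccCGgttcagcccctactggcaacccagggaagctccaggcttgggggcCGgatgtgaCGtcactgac
FILIP1: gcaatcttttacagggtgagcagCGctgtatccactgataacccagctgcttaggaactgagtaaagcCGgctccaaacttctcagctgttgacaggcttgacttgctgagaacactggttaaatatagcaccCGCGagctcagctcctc
PCAT19: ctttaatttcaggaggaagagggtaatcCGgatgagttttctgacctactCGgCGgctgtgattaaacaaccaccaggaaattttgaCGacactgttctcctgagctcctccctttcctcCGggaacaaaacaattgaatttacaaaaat
DHRS2: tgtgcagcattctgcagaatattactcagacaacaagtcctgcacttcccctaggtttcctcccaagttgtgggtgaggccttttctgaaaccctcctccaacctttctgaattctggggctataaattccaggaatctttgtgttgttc
The windows of SPANXB1 and FILIP1 hold 4 CG dinucleotides each, those of MAGEA9 and PCAT19 hold 5 each, and that of DHRS2 holds 0. Methylation was not measured on these arrays.

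The called genes fell into few detection patterns. The main one was a signal in the combination alone. For 63 of the 85 probes with a positive interaction, both siUHRF1 + TSA arrays were well above background and none of the other 6 arrays was. In all, 307 probes tested had that pattern, of which the 63 are 20.5%. In a further 13 called probes siUHRF1 alone was above background on 1 or 2 arrays, siCONT and siCONT + TSA were not, and the combination was above background on both arrays. The probes above background on all 8 arrays held 3 calls among 20754 (0.0145%). In 77 of the 85 probes neither siCONT array was above background, and in 81 the combination was the brightest group. Where a group is below background its level is a stand-in value near the floor of the array, so the size of the interaction on the log2 scale depends on that floor and is not a bound. A positive sign is favoured by the filter where the combination alone was above background. The SE and p of such a probe rest largely on the spread of stand-in values. They are given as output of the fit and do not measure the spread of expression. The fold over a group below background is given as a nominal lower limit instead. It is nominal because a probe can exceed the lowest signal called above background on an array and still not be called so.

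FBLN1, THY1, FILIP1 and COL1A2 had the largest interactions among named genes with a signal in the combination alone. In a bulk culture, a signal in more cells and more RNA per cell cannot be told apart. FBLN1, an extracellular matrix glycoprotein, was at -6.42 and -6.18 in siCONT, -5.33 and -6.50 in siUHRF1, -6.14 and -6.17 in siCONT + TSA, and -0.94 and -1.35 in siUHRF1 + TSA. The combination lay above all 6 other arrays, and the signal was at least 7.99-fold higher than in siCONT + TSA and at least 10.1-fold higher than in siUHRF1 (interaction 4.62, SE 0.52, adjusted p = 0.0309). Another FBLN1 probe, above background on all 8 arrays, had an interaction of 0.02 (SE 0.22), so the 2 probes of this gene disagree. THY1, the surface glycoprotein CD90, read -6.05 and -6.06 in siCONT, -6.17 and -6.19 in siUHRF1, -6.02 and -5.92 in siCONT + TSA, and -1.74 and -1.62 in the combination. None of the 6 arrays without both treatments was above background for THY1. Its interaction had the lowest p of all probes (4.42, SE 0.13, adjusted p = 0.000692), with stand-in values in every group but the combination. The THY1 signal in the combination was at least 5.52-fold higher than in siCONT + TSA and at least 6.95-fold higher than in siUHRF1. The probe lies at chr11:119288887-119288946 (hg19).

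COL1A2 encodes the alpha-2 chain of type I collagen. Its levels were -6.41 and -6.26 in siCONT, -6.40 and -6.48 in siUHRF1, -6.25 and -6.14 in siCONT + TSA, and -2.23 and -2.37 in siUHRF1 + TSA (interaction 3.995, SE 0.15, adjusted p = 0.000798). The combination was at least 3.59-fold higher than siCONT + TSA. FILIP1, a filamin A binding protein whose promoter is printed above, was at -6.34 and -6.26, -6.49 and -6.40, and -6.14 and -6.06 in the same 3 groups and at -1.97 and -2.17 in the combination (interaction 4.17, SE 0.15, adjusted p = 0.000798). A second FILIP1 probe with the same detection pattern gave 0.92 (SE 0.76) and was not called. LY6D, a surface protein anchored by a lipid, read between -6.56 and -6.13 on the 6 other arrays and -2.69 and -3.04 in the combination (interaction 3.497, SE 0.20, adjusted p = 0.00228). For these 5 genes both combination arrays lay above all 6 other arrays. None of the 5 was called with normexp background correction, where the interaction was 0.97 for FBLN1, 0.58 for THY1, 0.39 for FILIP1, 0.37 for COL1A2 and 0.14 for LY6D.

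NEFH, the heavy neurofilament subunit, was at -3.24 with siUHRF1-1 and -2.65 with siUHRF1-2 under TSA, and between -6.55 and -6.16 on the 6 other arrays (interaction 3.44, SE 0.27, adjusted p = 0.00735). TMSB15A, an actin-binding thymosin, read -3.02 and -2.45 in the combination and between -6.43 and -5.75 elsewhere (interaction 3.36, SE 0.30, adjusted p = 0.0127). BTBD17 was at -2.65 and -3.10 in the combination against -6.53 to -6.03 elsewhere (interaction 3.52, SE 0.24, adjusted p = 0.00437). TRIM49, a tripartite motif protein, was at -3.12 and -2.81 against -6.52 to -6.12 (interaction 3.38, SE 0.19, adjusted p = 0.00228). The lower limit of the fold over siCONT + TSA lay between 2.27 for TRIM49 and 2.66 for TMSB15A in these 4 genes. Their interactions with normexp were 0.069 for NEFH, 0.047 for TMSB15A, 0.026 for BTBD17 and 0.076 for TRIM49, and none was called.

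Germline genes whose called probe had a signal in the combination alone included MAGEA10, a cancer-testis antigen, at -2.49 and -2.75 in siUHRF1 + TSA and between -6.56 and -6.17 on the other 6 arrays (interaction 3.62, SE 0.22, adjusted p = 0.0025). RHOXF2, an X-linked homeobox gene of reproductive tissue, read -3.13 and -3.17 in the combination and between -6.76 and -6.32 elsewhere (interaction 3.38, SE 0.13, adjusted p = 0.000798). MAGEA10 was at least 2.88-fold and RHOXF2 at least 1.99-fold higher in the combination than in siCONT + TSA. Neither was called with normexp, at 0.12 for MAGEA10 and 0.035 for RHOXF2. The further called genes of this pattern are named with their interaction. Members of the cancer-testis and germline lists were PAGE1 (3.28), SSX1 (2.70), TDRD1 (2.37), DPPA2 (2.88), MAGEB6 (2.25), MAGEC2 (2.96), MAGEA2B (2.02) and CT45A1 (2.85). SSX4B (2.44), CSAG2 (2.75) and MAGED4B (2.5) were called with this pattern too and are in neither list.

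**Figure D2:**
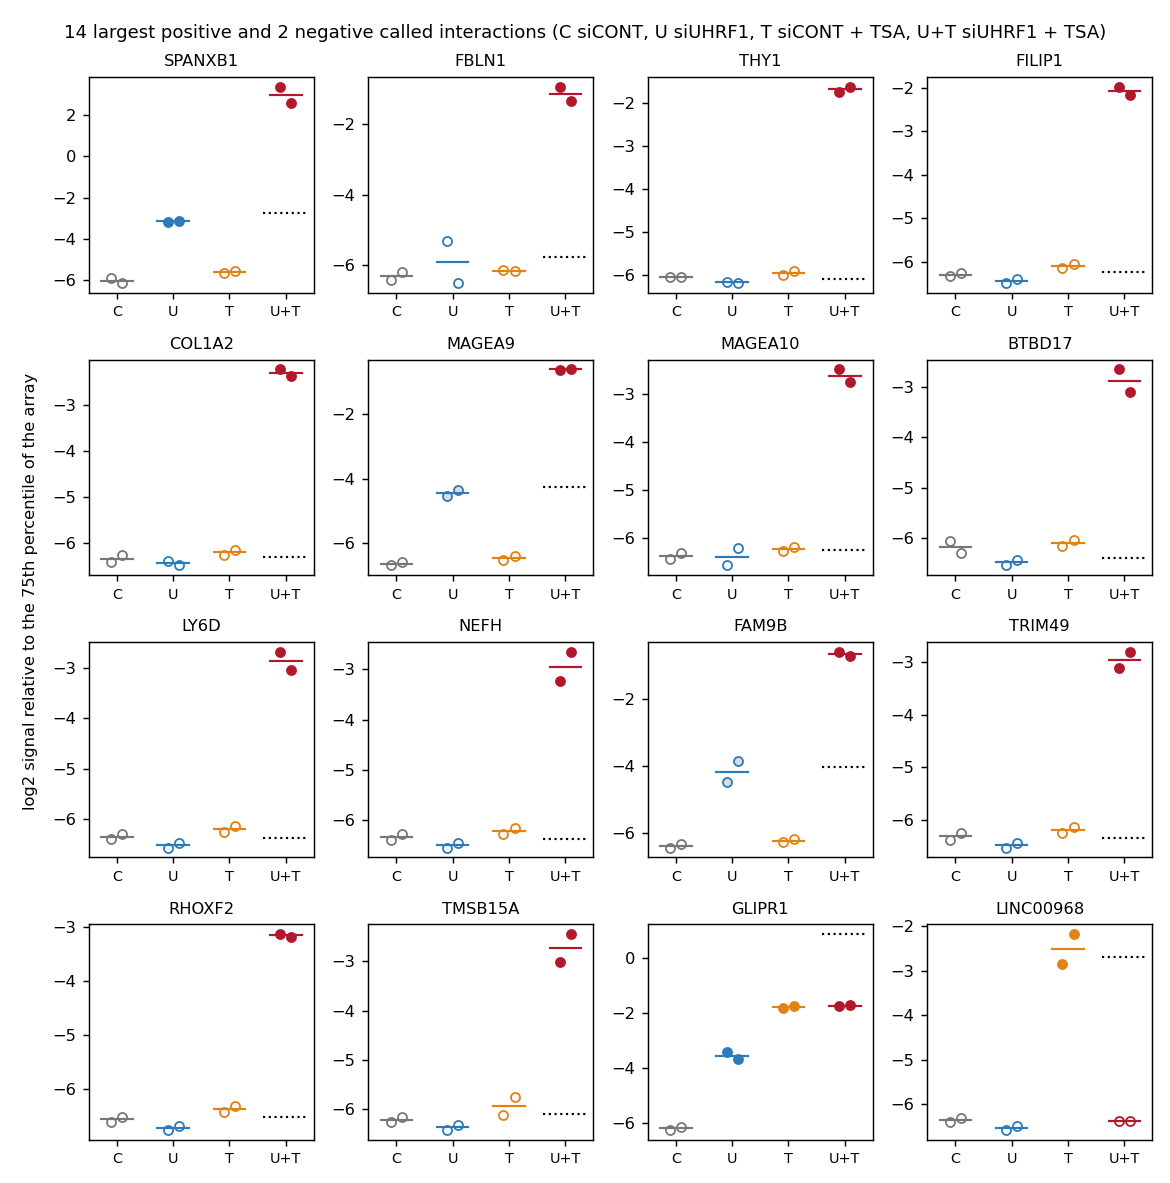
Log2 signal relative to the 75th percentile of the array (vertical axis) on each of the 8 arrays for the 14 named genes of largest positive called interaction and the 2 named genes with a negative one. Circles are arrays (replicate 1 on the left), filled in colour where both arrays of the group were above background, grey where 1 was and white where neither was, bars are group means, and the dotted line is the level that adding both log2 effects to siCONT would give. In 14 genes the combination lies above that line, and in GLIPR1 and LINC00968 it lies below, which their choice by sign fixes.

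For PAGE1, MAGEB6, MAGEA2B, MYO5C and LINC02525 the fit called a rise with siUHRF1 alone, by 1.16 (adjusted p = 0.00782), 1.83 (adjusted p = 0.00318), 1.78 (adjusted p = 0.00478), 1.95 (adjusted p = 0.0136) and 1.48 (adjusted p = 0.0136), although neither siUHRF1 array was above background at these probes. A second MAGEA2B probe (2.16, not called) was above background on both siUHRF1 arrays. Genes of other tissues or of the matrix in the same pattern were MT1G, a metallothionein (3.32), EMILIN2, a matrix glycoprotein (2.76), SOD3, the extracellular superoxide dismutase (2.93), PXDN, peroxidasin (2.61), ADAMTS4, an aggrecanase (3.07), and KRTAP3-1, a keratin-associated protein (3.14). Signalling and surface genes were SEMA5B (2.55), TM4SF1 (2.77), MRGPRF (3.32), CHRNB2, a nicotinic receptor subunit (2.57), WFIKKN2 (2.51), ACVRL1, a receptor of the TGF-beta family (2.34), GDF10, a ligand of that family (2.92), and ARHGDIB (2.70). The remaining genes of the pattern were VENTX (2.57), SH3PXD2A (2.49), DPYSL4 (3.08), CES1 (3.05), TMEM139 (2.79), LBH (2.08), NEU4 (1.85), LDOC1 (1.62), HSPB3 (3.34), HSPA1A (3.14), MYO5C (2.30), LINC02525 (1.62) and KIF25 (2.08). For ARHGDIB, NEU4 and LDOC1 it was TSA alone that raised the fitted level over siCONT, by 2.40 (adjusted p = 0.00385), 1.21 (adjusted p = 0.00932) and 1.10 (adjusted p = 0.00875), again without an array called above background.

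The 63 called probes of this pattern had little spread where they were dim. Replicates differed by a median of 0.111 in siCONT, 0.113 in siUHRF1 and 0.104 in siCONT + TSA, and 0.265 in siUHRF1 + TSA. In the 244 probes of the same pattern that were not called these differences were 0.180, 0.652, 0.321 and 0.367. The called probes thus varied least in the groups where they were below background. The part of this in the calls was not tested. On the threshold, ACSS1 (adjusted p = 0.0486), VCX2 (0.0475) and KIF25 (0.0463) were just inside it, and NGFR (2.14), KRABD3 (1.48) and BEX2 (-1.94), all at an adjusted p of 0.0519, were just outside.

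In the second pattern the called probe was above background on 1 or 2 siUHRF1 arrays and on both combination arrays, while siCONT and siCONT + TSA were below background. SPANXB1, a cancer-testis antigen of the sperm nucleus, was at -5.90 and -6.11 in siCONT, -3.19 and -3.11 in siUHRF1, -5.64 and -5.54 in siCONT + TSA, and 3.35 and 2.59 in siUHRF1 + TSA. Its interaction was the largest of all called probes (5.70, SE 0.34, adjusted p = 0.0025). The signal in the combination was 69.6-fold higher than in siUHRF1 and at least 139-fold higher than in siCONT + TSA. A second SPANXB1 probe was also called, at 5.31 (SE 0.62, adjusted p = 0.0362). The first probe lies at chrX:140097676-140097735 (hg19).

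MAGEA9 was at -6.69 and -6.59 in siCONT, -4.52 and -4.36 in siUHRF1, -6.52 and -6.40 in siCONT + TSA, and -0.60 and -0.60 in the combination (interaction 3.66, SE 0.15, adjusted p = 0.000798). MAGEA9 was above background on 1 siUHRF1 array and on both combination arrays, where it was at least 11.7-fold higher than in siCONT + TSA. FAM9B, a nuclear protein of the testis, read -6.44 and -6.32, -4.48 and -3.83, -6.28 and -6.18, and -0.57 and -0.69 in the same order (interaction 3.39, SE 0.29, adjusted p = 0.011). In both genes the effect of siUHRF1 alone was itself called, at 2.20 for MAGEA9 (adjusted p = 0.00131) and 2.22 for FAM9B (adjusted p = 0.0118), whereas that of TSA alone was 0.18 and 0.14. Further genes of this kind were MAGEA4 (3.01), RADIL, a Rap1 effector (1.97), COX7B2, a testis form of a cytochrome c oxidase subunit (2.78), and ACSS1, the mitochondrial acetyl-CoA synthetase (1.14). VCX2, expressed in male germ cells (2.96), and HMX1, a homeobox gene (2.70), were above background at their called probes on 2 and 1 siUHRF1 arrays, but the effect of siUHRF1 alone was not called, at 0.995 (adjusted p = 0.298) and 0.99 (adjusted p = 0.215). Each has another probe that was above background on all 8 arrays. MAGEA9 (1.23) and FAM9B (1.05) were not called with normexp, whereas SPANXB1 (3.85) was.

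Probes above background on all 8 arrays do not rest on stand-in values, and they were treated separately. When the 20754 such probes were fitted and adjusted on their own, limma called 0 (0%). At an unadjusted p below 0.05 there were 671 (3.23%), of which 333 (1.6%) were higher and 338 (1.63%) lower. The lowest adjusted p was 0.387. The median interaction was -0.0079 with a median SE of 0.199, and 78 exceeded 1 in size, 65 upwards and 13 downwards. Two-way ANOVA without shrinkage also called 0. With normexp background correction limma called 4 (PCAT19, GAGE2B, DHRS2 and VCX2), and with spike-in scaling it called PCAT19.

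In the fit over all 23703 probes, 3 of these fully measured probes passed. Each had a lower unadjusted p in the separate fit, yet limma's adjusted p there was 0.387 for PCAT19, 0.432 for GAGE2B and 0.466 for DHRS2. Their calls thus depend on being adjusted together with probes that were dim on some arrays. PCAT19, a long noncoding RNA, was at -2.65 and -2.71 in siCONT, -2.28 and -1.82 in siUHRF1, -1.18 and -1.14 in siCONT + TSA, and 1.71 and 1.76 in siUHRF1 + TSA (interaction 2.27, SE 0.22, adjusted p = 0.0165). Its change with UHRF1 depletion was 0.63 without TSA (adjusted p = 0.255) and 2.90 with TSA (adjusted p = 0.000382), a 7.45-fold difference over siCONT + TSA. GAGE2B, a cancer-testis antigen, read -1.60 and -2.03 in siCONT, 2.48 and 2.98 in siUHRF1, -1.90 and -1.77 in siCONT + TSA, and 5.57 and 5.35 in the combination (interaction 2.75, SE 0.31, adjusted p = 0.0298). TSA alone changed GAGE2B by -0.02 (adjusted p = 0.967), and added to UHRF1 depletion it changed it by 2.73 (adjusted p = 0.00197). The GAGE genes are near-identical copies, so the probe may read several of them. Whether probes of other gene families, such as SPANX, MAGE, SSX, CT45 and the heat shock proteins, read several copies was not checked. DHRS2, a short-chain dehydrogenase, was at -3.26 and -3.47, -2.16 and -2.39, -0.70 and -0.60, and 1.95 and 1.84 in the same order (interaction 1.46, SE 0.18, adjusted p = 0.0462). Both single treatments raised DHRS2, by 1.09 for siUHRF1 (adjusted p = 0.0285) and 2.71 for TSA (adjusted p = 0.00117). The probes lie at chr19:41985065-41985124 for PCAT19, chrX:49242935-49242993 for GAGE2B and chr14:24114500-24114560 for DHRS2 (hg19).

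**Figure D3:**
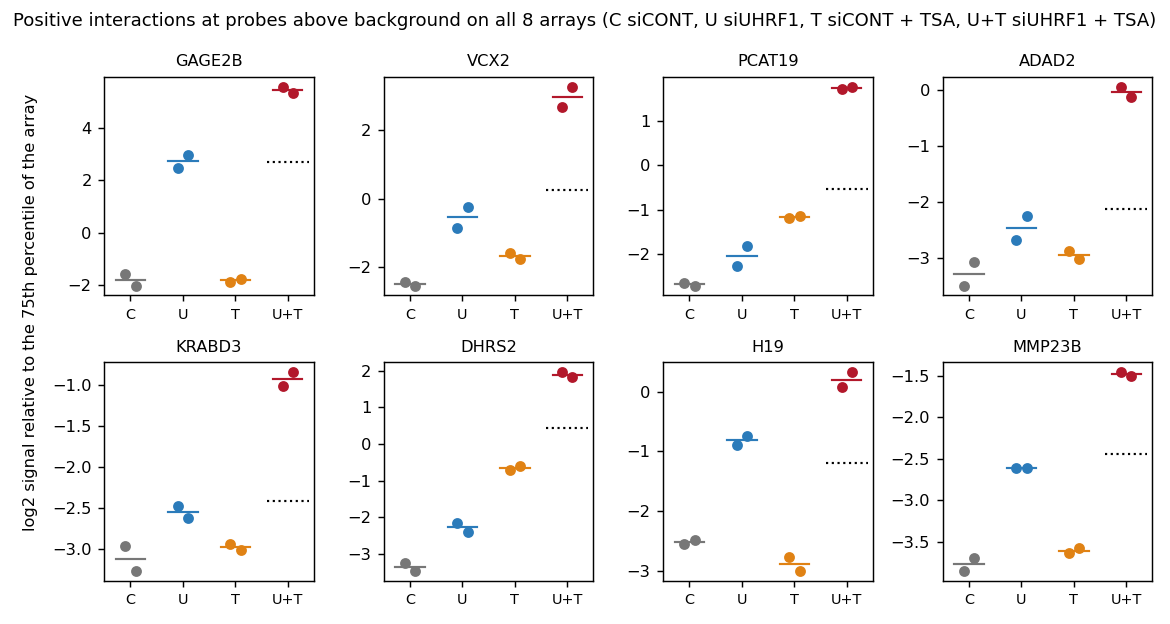
Log2 signal relative to the 75th percentile of the array (vertical axis) on each of the 8 arrays for the 8 positive interactions of lowest p among probes above background on all 8 arrays, 3 of them called. Circles are arrays (replicate 1 on the left), bars are group means, and the dotted line is the level that adding both log2 effects to siCONT would give, which both combination arrays exceed in every panel.

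Next in order of p, and not called, were KRABD3 (interaction 1.48, adjusted p = 0.0519), ADAD2, a testis adenosine deaminase domain protein (2.10, 0.055), the fully measured probe of VCX2 (2.70, 0.0552), the imprinted noncoding RNA H19 (1.39, 0.0637) and MMP23B, a metalloproteinase (0.96, 0.0715). H19 stood at -2.55 and -2.48 in siCONT, -0.90 and -0.73 in siUHRF1, -2.77 and -3.00 in siCONT + TSA, and 0.08 and 0.32 in the combination. Of the negative interactions among probes chosen in the same way, those of lowest p were ANGPTL4 (-0.70, adjusted p = 0.299), GARS1-DT (-0.68, 0.302), MGC16142 (-0.82, 0.323), UHRF1 and CA9, the hypoxia-regulated carbonic anhydrase (-0.68, 0.376). ANGPTL4 was at 1.97 and 1.94 in siCONT, 1.33 and 1.55 in siUHRF1, 1.17 and 1.19 in siCONT + TSA, and 0.00 and -0.06 in siUHRF1 + TSA, and the 4 groups did not overlap. The reference genes ACTB (-0.06, SE 0.20) and GAPDH (0.01, SE 0.14) and the CDK inhibitor CDKN1A (0.02, SE 0.17) had small interactions. DKK1, a WNT antagonist that the study names as silenced, had 1.92 (SE 0.60, adjusted p = 0.746), with levels of 1.5 for siUHRF1-1 and 0.15 for siUHRF1-2 under TSA. GATA4 (-0.16, SE 0.27) and NEURL1 (0.07, SE 0.14), named likewise, were near 0.

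A further 4 called genes were measured above background in a single treatment and do not follow either pattern. IFI27, an interferon-stimulated gene, was above background in all groups except siCONT and was at -4.60 and -4.23, -3.62 and -3.79, -3.78 and -3.78, and -1.16 and -0.87 (interaction 2.05, SE 0.23, adjusted p = 0.0312). PLXNB3, a semaphorin receptor, went from -3.98 and -4.04 in siCONT to -2.38 and -2.30 in the combination (1.34, adjusted p = 0.0447). ABCC2, a drug efflux pump, and AFG3L1P, a pseudogene, had positive interactions of 1.94 and 1.78 without a rise over siCONT. ABCC2 fell by 1.58 with TSA alone (adjusted p = 0.00977) and was at -4.14 and -3.81 in the combination against -3.90 and -3.60 in siCONT. AFG3L1P fell by 2.65 with TSA (adjusted p = 0.00234), below background, and its 2 other probes, above background on all 8 arrays, gave -0.18 and -0.06.

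A negative interaction was called for 2 named genes. GLIPR1, a member of the CAP protein family, was at -6.26 and -6.15 in siCONT, -3.43 and -3.68 in siUHRF1, -1.81 and -1.76 in siCONT + TSA, and -1.76 and -1.72 in siUHRF1 + TSA. Either treatment alone raised it, by 2.65 (adjusted p = 0.00129) and 4.42 (adjusted p = 0.00028), and UHRF1 depletion added 0.05 under TSA (adjusted p = 0.883), giving an interaction of -2.60 (SE 0.16, adjusted p = 0.00272). On the linear scale its combined signal was 0.797 times the sum of both single signals. LINC00968, a long intergenic noncoding RNA, read -6.42 and -6.32 in siCONT, -6.59 and -6.51 in siUHRF1, -2.85 and -2.18 in siCONT + TSA, and -6.39 and -6.39 in the combination. It was above background with TSA in control cells and on none of the other 6 arrays (interaction -3.70, SE 0.30, adjusted p = 0.00764). Neither was called with normexp, at -0.54 for GLIPR1 and -1.06 for LINC00968. The other 3 negative calls had no gene symbol.

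Because a sum on the log2 scale is a product of fold changes, the combined signal was also set against the plain sum of the signals of siUHRF1 and siCONT + TSA, with a group that had no array above background put at its ceiling. This is a demanding sum, since the background enters both single signals. The ceiling is the one used for the folds, so these limits are nominal too. Of the 82 called probes with a positive interaction and both combination arrays above background, 59 exceeded that sum, 28 by more than 2 times and 15 by more than 4 times. In the other 23 the limit was at or below 1 and said nothing. SPANXB1 reached at least 47.9 times the sum, and between 34.4 and 62.4 over the 16 choices of 1 array per group. Limits between 4 and 7 were found for MAGEA9 (6.42), FAM9B (5.68), VCX2 (4.88), COX7B2 (4.78), MAGEA4 (4.50), FBLN1 (4.49) and ARHGDIB (4.08). Both single treatments were above background in 4 genes, whose ratios were 6.31 for GAGE2B, 4.81 for PCAT19, 4.41 for DHRS2 and 3.32 for IFI27. The excess of the combination over both single rises on the linear scale was above 0 in all 82, a direction that the choice of probes favours, and in 47.9% of all probes above background on all 8 arrays.

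**Figure D4:**
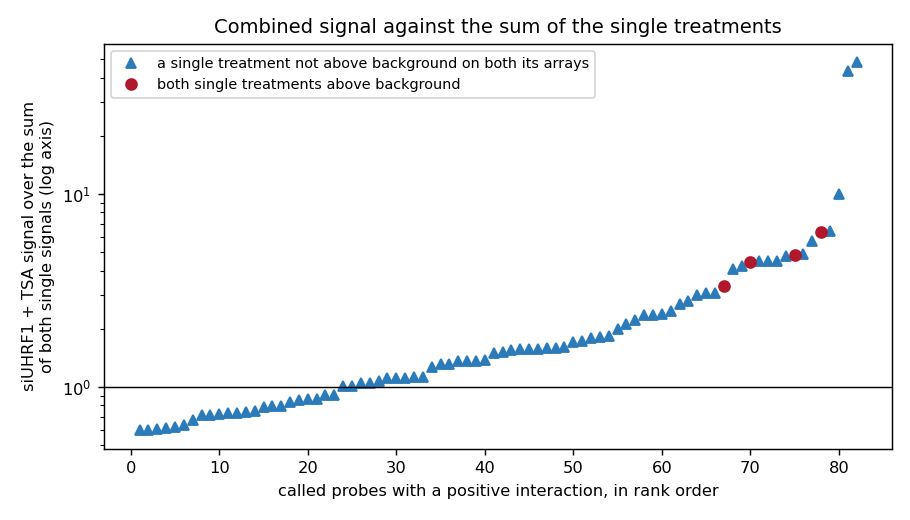
Mean signal in siUHRF1 + TSA divided by the sum of the mean signals in siUHRF1 and siCONT + TSA (vertical log axis) for the 82 called probes with a positive interaction and both combination arrays above background, in rank order. Triangles have at least 1 single treatment not above background on both its arrays, circles are the 4 probes with both measured, and the line marks a ratio of 1, which 59 probes exceed up to 47.9.

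The direction of the interaction was the same with each siRNA. All 90 called probes kept 1 sign over the 16 choices of 1 array per group, against 16.7% of probes tested, which the choice of called probes in part fixes. The interaction was larger with siUHRF1-1 in 49 of the 85 positive probes, and the median difference in size between the siRNAs was 0.397. SPANXB1 gave 6.12 with siUHRF1-1 and 5.29 with siUHRF1-2, FBLN1 gave 4.23 and 5.00, and THY1 gave 4.35 and 4.49. The siUHRF1 array and the siUHRF1 + TSA array of the same siRNA deviated together from their group means (correlation 0.562 across 20754 probes, which are not independent). A fit that pairs arrays by siRNA label, and the siCONT arrays by replicate number, called 28 probes in place of 90. It also leaves fewer residual degrees of freedom, so the fall does not isolate the pairing by siRNA.

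**Figure D5:**
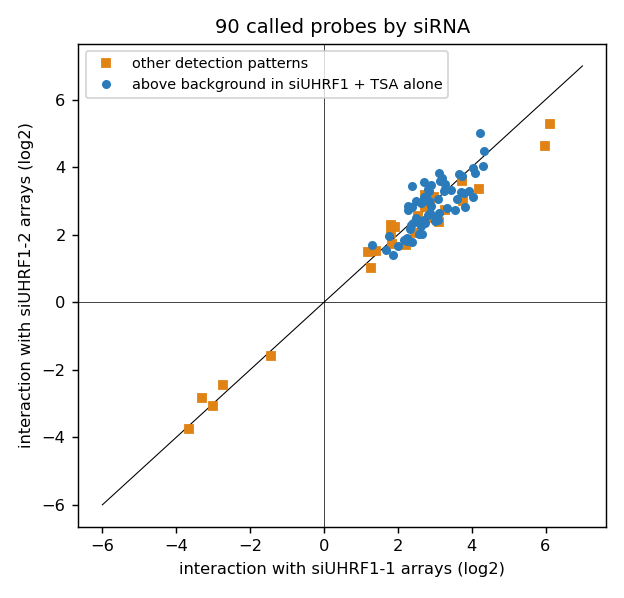
Interaction of the 90 called probes computed with the siUHRF1-1 arrays (horizontal axis, log2) and with the siUHRF1-2 arrays (vertical axis, log2), both against the mean of the same control arrays. Circles are the 63 probes above background in siUHRF1 + TSA alone and squares the others, the line marks equal values, and every probe has the same sign with both siRNAs.

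Some called genes had another probe on the array. Of 17 such probes, for 15 genes, 14 had the sign of the called probe and 3 were called, for PXDN (3.19), SSX4B (1.86) and SPANXB1. Second probes of MAGEA2B (2.16), CT45A1 (3.36), TM4SF1 (3.02) and LINC02525 (1.97) were of like size and not called. In contrast, the other probes of KRTAP3-1 (0.17), CES1 (0.32), DPYSL4 (0.16), HMX1 (-0.05), FBLN1 and AFG3L1P were above background on all 8 arrays and near 0. For these 6 genes the probes disagree, and the called transcript signal may not stand for the whole gene.

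Gene lists were described by counts. Of all 17763 gene names tested, 79 (0.445%) were called with a positive interaction. Most tested members of the cancer-testis list passed the filter through the groups in which they are bright, a pattern in which calls were frequent, so their count is not set against that share. Of 33 cancer-testis antigen genes tested, 10 were called higher, namely CT45A1, MAGEA10, MAGEA2B, MAGEA4, MAGEA9, MAGEB6, MAGEC2, PAGE1, SPANXB1 and SSX1, and none lower. Of the 6 members above background on all 8 arrays, 0 were called, and 2 had a positive interaction at limma's unadjusted p below 0.05. With normexp background correction 1 gene of the list was called. Of 55 single-copy germline and meiosis genes 21 were tested, and DPPA2 and TDRD1 were called. Of 35 neuronal and REST target genes 8 were tested, and CHRNB2 and NEFH were called. HSPA1A and HSPB3 were called among 20 heat shock proteins, MT1G among 11 metallothioneins and IFI27 among 25 interferon-stimulated genes. Except for IFI27, each of these called genes passed the filter through the combination alone, so their counts are not set against that share either. Of 10 genes that the study names as silenced, 3 passed the filter and none of these was called. The paper reports restored expression of silenced genes with both treatments in RKO cells by RT-PCR and qRT-PCR. These arrays say nothing on the members not tested. There was also no call among 5 CIMP markers, 23 p53 targets, 22 ATF4 and unfolded protein response genes or 7 CDK inhibitors. The same held for 15 genes that write, read or erase DNA methylation, 15 histone deacetylases, 5 globins, 12 matrix and protease inhibitor genes and 15 AP-1 and early response genes.

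Cell cycle genes had no call among 43 S phase and 53 G2/M genes. Among those above background on all 8 arrays, 3 of 42 S phase genes had an interaction above 0 with a median of -0.17, and 11 of 53 G2/M genes with a median of -0.11, against 47.8% of 15660 gene names and a median of -0.01. Without replicate 1 of siUHRF1 + TSA the S phase median was 0.02, so its sign rests on the siUHRF1-1 array under TSA. UHRF1, the target of the siRNAs, is itself in the S phase list, with an interaction of -0.88. With normexp background correction the G2/M median was -0.0016, with 26 of 53 genes above 0.

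Of the 65 genes with a positive called interaction, 64 had a chromosome in the RefSeq table, and 19 of these (29.7%) lay on the X chromosome, against 3.43% of all genes tested. Among genes with a signal in the combination alone, the share was 26.5% (13 of 49) for those called and 10.3% (17 of 165) for those not called. Many members of the cancer-testis families SPANX, MAGE, GAGE, SSX, PAGE and CT45 are clustered on the X chromosome, so these genes are not independent of each other.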

How the data were processed

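Total RNA of RKO cells was hybridized in 1 colour to SurePrint G3 Human GE v2 arrays. The deposited signal intensities were made by the authors with Agilent Feature Extraction 10.7 (background-subtracted, with stand-in values for dim spots, not normalized between arrays). The paper names GeneSpring GX and t-tests or ANOVA. The deposited value table, linear intensity too, served as an alternative.

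ControlType 0 spots were used, outlier spots left out and spots of 1 probe averaged. Log2 signals were shifted by the 75th percentile of the array. A probe was tested if, in at least 1 group, both arrays read well above background, and if it had a value on all 8 arrays. It counted as above background where 50% or more of its spots were flagged so. limma 3.58.1 (R 4.3.3) fitted 4 group means, with Benjamini-Hochberg adjustment over 23703 probes. The procedure was tested on simulated data. For a group with no array above background, a fold is a nominal lower limit. It puts each array at its lowest signal called above background or the probe's own signal if higher. Named were the 14 largest positive and all negative called interactions, every other called gene, the fully measured probes of lowest p, UHRF1, reference and study-named genes, and called list members. Gene symbols came by accession from a RefSeq table for 28174 of 50599 probes. The promoter table held 49 of the 65 positive genes (75.4%), under the 80% needed, so promoter motifs were not compared. The members and lists were chosen with earlier results of these data known.

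Alternatives were normexp, quantile, median and spike-in scaling, the value table, outlier spots kept, 2 other filters, another prior, 2 blocks, ANOVA, each array left out and other thresholds. The ratio to the sum of single signals and the cell cycle medians under each setting were added after the data were seen.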

Additional observations from a re-analysis of the deposited data

Results flagged for a closer look

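By limma's interaction test of UHRF1 depletion under TSA against mock, 90 probes were called. Of these, 63 had a signal in the combination alone, where the p rests largely on stand-in values. Among the genes given with full values the interactions were 5.70 for SPANXB1, 4.62 for FBLN1, 4.42 for THY1, 4.17 for FILIP1, 3.995 for COL1A2, 3.66 for MAGEA9, 3.62 for MAGEA10, 3.52 for BTBD17 and 3.497 for LY6D. Those of NEFH (3.44), FAM9B (3.39), TRIM49 (3.38), RHOXF2 (3.38) and TMSB15A (3.36) followed. The negative ones were -2.60 for GLIPR1 and -3.70 for LINC00968. The called probes above background on all 8 arrays gave 2.27 for PCAT19, 2.75 for GAGE2B and 1.46 for DHRS2. None of these was called when such probes were fitted and adjusted on their own.

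The 5-aza-dC array, which the interaction did not use, had a signal for most of these genes. Of the 77 probes with a positive called interaction and no siCONT array above background, 69 (89.6%) were above background on it. Of the 762 probes tested and not called that were also below background in siCONT and above it on both combination arrays, 595 (78.1%) were. Within the set with a signal in the combination alone the shares were 55 of 63 called probes (87.3%) and 181 of 244 others (74.2%). Of the 5 probes with a negative interaction 1 was above background there. SPANXB1 reached 6.26 on that array, TRIM49 4.46, RHOXF2 3.76 and GAGE2B 6.69, whereas BTBD17, HSPB3, CHRNB2, SOD3 and ACVRL1 were among those not above background. It is 1 array on another slide and scan with a higher 75th percentile (822), so no test was made.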

How the results depend on the processing

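The count of 90 called probes was within 1.5 times of itself with quantile (84), median (88) and spike-in (120) scaling, the value table, outlier spots kept, no filter (78, of which 51 were among the 90) and the replicate block (71). It was 6 with normexp background correction, 5 when 2 groups had to be above background, 1 with a trended and robust prior, 28 with the culture block that pairs arrays by siRNA label, 15 by ANOVA without shrinkage, 46 to 126 with 1 array left out and 1166 at an unadjusted p below 0.05. Leaving out siCONT + TSA replicate 2 gave 46, siCONT + TSA replicate 1 gave 48 and siCONT replicate 2 gave 58. In these refits the group with 1 array left is assumed to vary like the others, and the spread comes from the other groups. Of the 90, 36 were called in at least 15 of 20 refits and 16 in at most 5, and none in all of them. SPANXB1 was called in 18, THY1 in 17, FAM9B and TMSB15A in 10, PCAT19 in 9, GAGE2B in 7, FBLN1 in 6 and DHRS2 in 3. Under normexp, SPANXB1 was at 3.85 and the other 13 of the 14 largest positive genes lay between 0.03 and 1.23 (median 0.14). The cause was not tested.

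Over probes above background on all 8 arrays the count of 0 became 4 with normexp, 1 with spike-in scaling and 0 to 3 with 1 array left out, and 671 at an unadjusted p. Small interactions that changed sign were, under normexp, ACTB (0.19) and CDKN1A (-0.010). With an array left out the range crossed 0 for CDKN1A (-0.10 to 0.14), GAPDH (-0.069 to 0.085), ACTB (-0.25 to 0.13), GATA4 (-0.38 to 0.047) and the S phase median (-0.30 to 0.017). Of the genes with full values none changed sign. The replicate numbers pair arrays by siRNA for siUHRF1 (correlation of deviations 0.562), and not for siCONT (0.084). The culture block paired the siCONT arrays by replicate number all the same. The number of arrays limits every value, and dim groups have stand-in values.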
